A study of Mus musculus with 50 samples.

Results

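The 10 genes described here are targets of beta-catenin signalling, of which several are also markers of the hepatocytes around the central vein: Axin2, Nkd1, Notum, Rnf43, Znrf3, Lgr5, Tbx3, Sp5, Glul and Lect2. They were chosen by gene symbol from the raw count table and are 10 of its 45792 genes. All 10 were found in the table and had counts in every group. The study followed male C3H/He mice on a control diet or on the ALIOS diet, which is rich in fat and given with sugar, and 2 further groups had the same diets together with the liver carcinogen diethylnitrosamine (DEN). The labels give 48 weeks of diet, whereas the methods of the study give 48 weeks as the age at the end. RNA was sequenced from 12 non-tumour livers of the control diet (N1 to N12), 11 non-tumour livers of the ALIOS diet (N13 to N23), 1 tumour of the control diet (T7), 12 tumours of the ALIOS diet (T2 to T6 and T8 to T14), 8 tumours of ALIOS diet plus DEN (T15, T16 and T22 to T27) and 5 tumours of control diet plus DEN (T17 to T21). The tumours of mice without DEN are called spontaneous. No non-tumour liver is labelled with DEN. Where DEN tumours are set against livers, DEN and tumour tissue therefore cannot be told apart. The same holds where the diet effect in DEN tumours is set against that in liver. The labels do not say which samples came from the same mouse. The paper describes the spontaneous tumours as coming from separate mice and treats each non-tumour liver as a separate case. Whether several DEN tumours came from the same mouse is not stated. Each p-value that involves DEN tumours therefore measures the spread between samples, which may not be that between animals. Which tumours and livers share a mouse is not stated either, so comparisons of tumours with livers treat them as unrelated.

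Levels are given in CPM, the usual scaling of a gene's counts to the total of its library. The median total was 31152151 counts in the control livers, 30763687 in the ALIOS livers, 31601477.5 in the spontaneous ALIOS tumours, 34728970 in the DEN ALIOS tumours and 33443145 in the DEN control tumours. T7 held 34140765 counts. Several libraries stood apart and are named before the results. T1, labelled as a tumour of the ALIOS diet, held kidney transcripts: all 6 genes of the kidney list were detected and summed to 42568.8 CPM, of which Kap made up 35347.1, while its 9 hepatocyte genes summed to 1710.7 CPM against at least 74181.8 in every liver. T1 is therefore left out of all comparisons. T24, a DEN tumour of the ALIOS diet, had far higher levels of the 10 genes than any other library, so the comparisons of the DEN ALIOS tumours were also made without it. T2, T6 and T23 had less than 10 CPM of Gpc3, a gene of foetal liver and liver tumours, where the other tumours compared had 31.2 CPM or more. N9, a control liver, had the lowest total of the livers (23968280 counts). It also had the lowest TMM factor of all libraries compared (0.7293), a scaling that the tests use and CPM does not. N9 sets the lower end of the control livers' CPM range for Axin2, Lgr5, Tbx3, Nkd1, Notum, Rnf43 and Znrf3.

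Wnt proteins bind Frizzled and Lrp receptors, which halts the destruction complex that otherwise marks beta-catenin for degradation, and beta-catenin then activates genes together with TCF/LEF factors. Many of these target genes encode inhibitors of the same pathway and so form a feedback. In the liver, Wnt and R-spondin proteins made by endothelial cells of the central vein keep this pathway active in the neighbouring pericentral hepatocytes, which make glutamine and metabolise drugs, whereas periportal hepatocytes make urea and glucose.

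Axin2 (ENSMUSG00000000142.13, chr11:108920349-108950783, plus strand of GRCm38) encodes a scaffold of the destruction complex. Nkd1 (ENSMUSG00000031661.9, chr8:88521354-88594884, plus strand) encodes a protein that binds Dishevelled, and Notum (ENSMUSG00000042988.8, chr11:120653788-120661175, minus strand) a secreted enzyme that strips the lipid from Wnt proteins. Rnf43 (ENSMUSG00000034177.13, chr11:87662722-87735539, plus strand) and Znrf3 (ENSMUSG00000041961.12, chr11:5276324-5444847, minus strand) encode membrane ubiquitin ligases that remove Frizzled from the cell surface. Lgr5 (ENSMUSG00000020140.13, chr10:115450311-115587780, minus strand) encodes a receptor for R-spondins. Tbx3 (ENSMUSG00000018604.16, chr5:119670669-119684724, plus strand) and Sp5 (ENSMUSG00000075304.2, chr2:70474923-70477729, plus strand) encode transcription factors. Glul (ENSMUSG00000026473.13, chr1:153899944-153909723, plus strand) encodes glutamine synthetase, and Lect2 (ENSMUSG00000021539.8, chr13:56542464-56548502, minus strand) a protein that hepatocytes secrete. The positions come from the Gencode annotation of GRCm38. Other genes share exon bases with 4 of the 10. On the opposite strand Notumos covers 29.4% and Myadml2os 8.72% of the exon bases of Notum, Gm11670 3.80% of those of Axin2, Teddm2 3.49% of those of Glul and Tbx3os1 1.74% of those of Tbx3. On the same strand Mir8114 covers 2.80% of the exon bases of Glul. Gm11670 reached at most 0.139 CPM in any library. The strand setting of the counting is not stated, so how reads of these shared stretches were counted is uncertain.

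RefSeq promoters (GRCm38.p6) were held for 6 of the 10 genes, with 7 starts in all. The promoters of Lgr5, Tbx3, Notum and Znrf3 were not held. The core letters bound by TCF/LEF factors were searched on both strands in the 250 bases before each start as CTTTGAA, as CTTTGAT, as CTTTGTA and as CTTTGTT, and 14.8% of the 32851 promoters of the table hold at least 1 of them. The promoters of Sp5 and Lect2 are printed because they held a match. The levels of both genes followed Axin2 across tumours (given further on), but so did those of Glul and Nkd1, whose windows held none. Sp5 had 2 matches, AACAAAG starting 222 bases and CTTTGAT starting 104 bases before the start, and Lect2 had ATCAAAG 32 bases before it. These letters were not found in the windows of Axin2, Glul, Nkd1 or Rnf43, and a match is a description and not a site. Capitals mark the matches, 5′ to 3′ on the strand of the gene, at chr2:70474673-70474922 for Sp5 and chr13:56548539-56548788 for Lect2.
Sp5: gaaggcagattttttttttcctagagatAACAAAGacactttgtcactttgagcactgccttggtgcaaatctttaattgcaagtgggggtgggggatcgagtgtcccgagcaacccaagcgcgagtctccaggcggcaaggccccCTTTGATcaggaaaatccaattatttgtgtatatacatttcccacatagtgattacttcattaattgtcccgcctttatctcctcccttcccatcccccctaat
Lect2: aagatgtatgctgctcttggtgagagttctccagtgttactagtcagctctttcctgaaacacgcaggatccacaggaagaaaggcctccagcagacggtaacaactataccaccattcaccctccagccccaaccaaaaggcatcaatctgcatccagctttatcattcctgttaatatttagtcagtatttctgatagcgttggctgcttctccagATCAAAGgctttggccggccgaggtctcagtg

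Per length, in CPM per kilobase of exon, Glul and Lect2 were far above the other 8 genes in non-tumour liver. The control livers had a median of 243 for Glul, 159.6 for Lect2, 5.20 for Notum, 3.29 for Rnf43, 2.54 for Tbx3, 1.36 for Znrf3, 0.657 for Axin2, 0.484 for Nkd1, 0.282 for Lgr5 and 0.162 for Sp5. The order was the same in the ALIOS livers, from 273 for Glul to 0.239 for Sp5. Most neighbours in this order overlapped across livers. Lect2 (lowest control liver 125.6) and Notum (highest 8.89) did not overlap on either diet, and Tbx3 (lowest 1.91) and Znrf3 (highest 1.41) did not in the ALIOS livers. In the spontaneous tumours the 3 highest medians were 29.5 for Lect2, 22.2 for Glul and 3.22 for Rnf43.

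In non-tumour liver the ALIOS diet went with small differences in these genes, and 2 of the 10 were called. Notum was lower on the ALIOS diet, at 6.24 to 11.8 CPM (median 9.49) against 7.09 to 21.4 CPM (median 12.5) on the control diet. Its ranges overlapped, with N17 and N22 below every control liver. Notum fell by 0.58 on the log2 scale (SE 0.13, adjusted p 0.00877). Znrf3 stood at 6.93 to 11.2 CPM (median 9.75) on the ALIOS diet and at 6.68 to 13.3 CPM (median 10.7) on the control diet, and all 11 ALIOS livers lay within the range of the control livers. Znrf3 fell by 0.22 (SE 0.07, adjusted p 0.0347). An adjusted p under 0.05 over all genes tested counts as called throughout. Among all 13723 genes tested, 4.51% were called lower and 6.73% higher; of the 10 genes 2 were lower and 0 higher. By edgeR at an unadjusted p under 0.05, and by DESeq2 at an adjusted one, none of the 10 was higher either. The call of Znrf3 was lost without a filter on low counts, where its adjusted p was 0.0664, and in 1 fit over all groups neither gene was called (adjusted p 0.693 for Notum and 0.445 for Znrf3). The other 8 genes had log2 fold changes from -0.37 (Lgr5, adjusted p 0.238) to 0.49 (Sp5, adjusted p 0.228), and the median of the 10 was 0.07 beside -0.02 over all genes.

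Of the 20 other pericentral genes 2 were higher, beside 6.73% of all genes tested: Slc1a2, a glutamate transporter, with a log2 fold change of 0.54 (SE 0.16, adjusted p 0.035) and Aldh3a2 with 1.03 (SE 0.29, adjusted p 0.0228). Of 8 other Wnt target genes tested 2 were higher and 1 lower: Ccnd1, which drives entry into the cell cycle, rose by 1.70 (SE 0.29, adjusted p 0.00141), Cd44 rose by 1.25 and Bmp4 fell by 0.43. Macrophage markers were higher for 6 of 8 genes, and their summed level had a median of 349.8 CPM in the ALIOS livers against 199 in the control livers, with Cd5l the most abundant. Their part in the levels of the 10 genes was not tested.

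**Figure D1:**
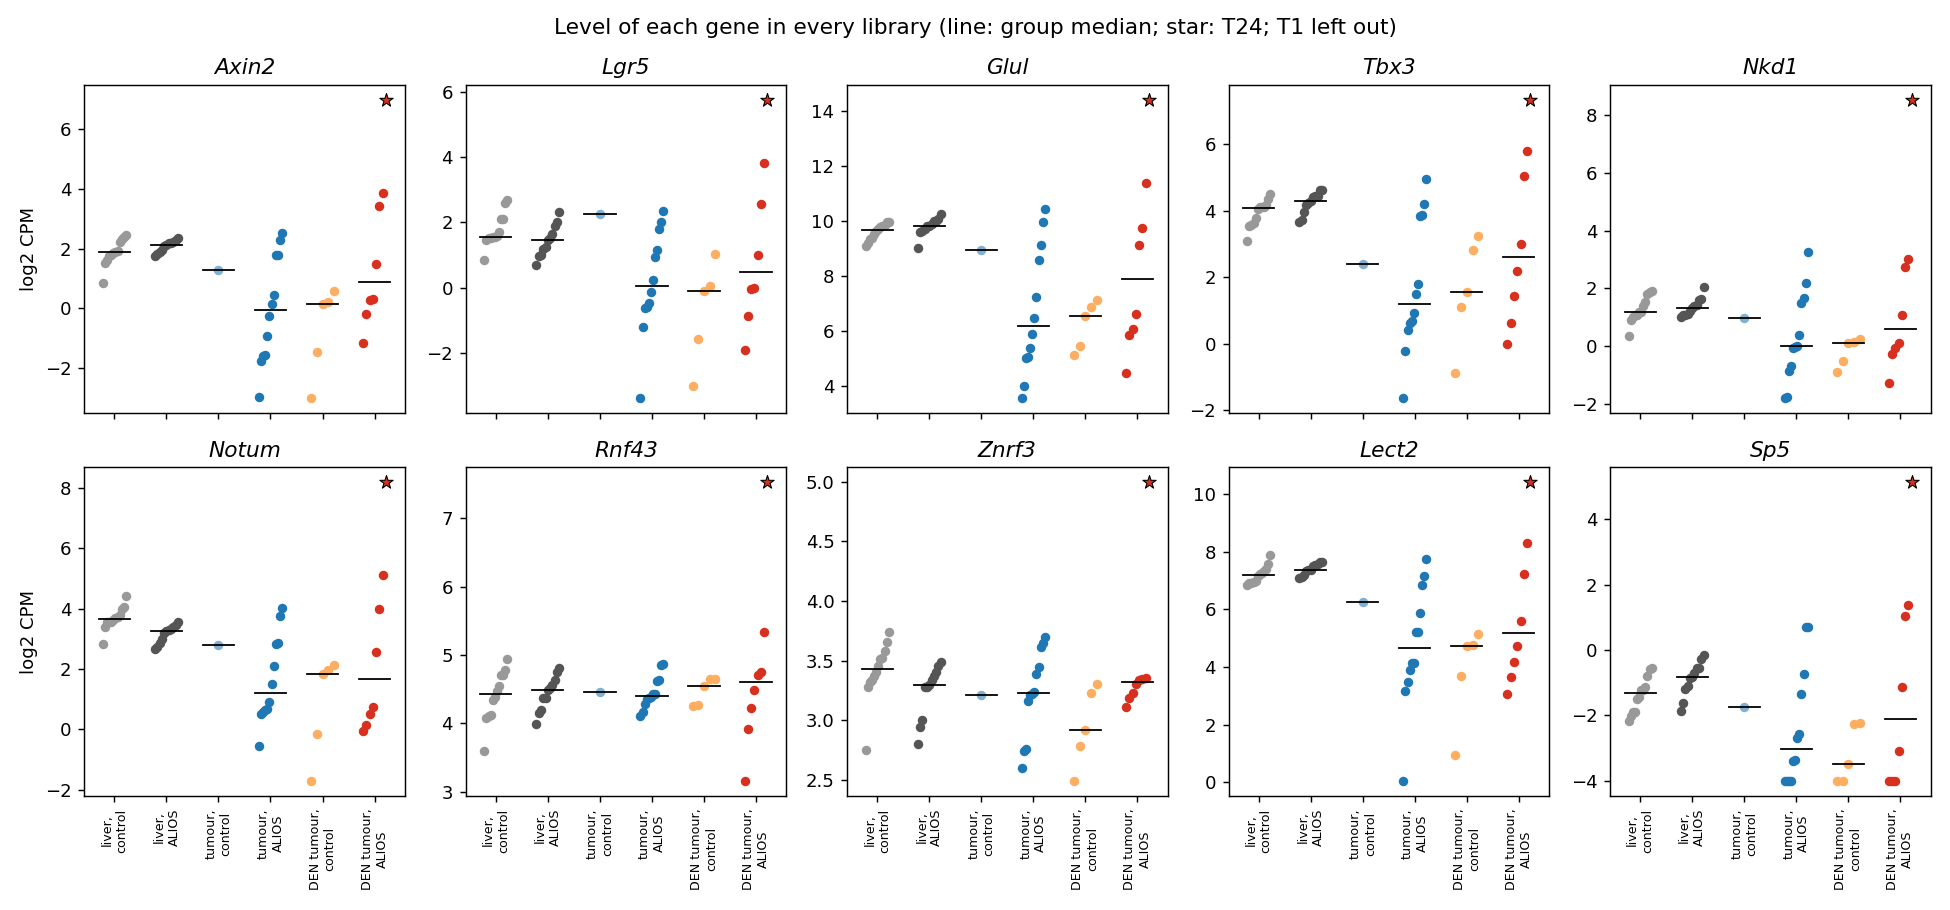
Log2 CPM (prior count 2) of each of the 10 genes in every library but T1, by tissue, diet and DEN; points are libraries, lines are group medians and the star is T24. The spontaneous tumours spread far more than the livers for 8 of the genes: Glul runs from 11.6 to 1377 CPM in spontaneous tumours and from 509 to 1229.5 CPM in ALIOS livers, while Rnf43 runs from 17.1 to 29.1 CPM in spontaneous tumours and from 15.8 to 27.9 CPM in ALIOS livers. For Rnf43 the DEN ALIOS tumours spread more than the livers as well, from 8.87 to 184 CPM, and to 40.4 CPM without T24.

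The tumours differed widely among themselves in the feedback gene Axin2. Axin2 ranged from 1.75 to 5.44 CPM in the 12 control livers (median 3.62) and from 3.34 to 5.09 CPM in the 11 ALIOS livers (median 4.35). Among spontaneous ALIOS tumours it stood at 5.67 CPM in T2, 4.87 in T6, 3.41 in T3, 3.37 in T5, 1.30 in T12, 1.05 in T4, 0.780 in T10, 0.464 in T9, 0.279 in T14, 0.265 in T11, 0.233 in T8 and 0.0647 in T13, with a median of 0.914. T2 was above every ALIOS liver, 3 tumours lay within the livers' range and 8 were below every one of them, while T7 with 2.40 CPM lay within the control livers. Axin2 in the DEN ALIOS tumours stood at 127 CPM in T24, 14.5 in T25, 10.8 in T23, 2.73 in T22, 1.17 in T15, 1.15 in T26, 0.805 in T27 and 0.379 in T16. T23, T24 and T25 were above every ALIOS liver and the other 5 below every one; the median was 1.95 CPM, and 1.17 without T24. The DEN control tumours had Axin2 levels of 1.44 CPM in T19, 1.09 in T20, 1.04 in T21, 0.303 in T17 and 0.0607 in T18, all 5 below every control liver. These are bulk samples, in which fewer cells that make an RNA and less of it per cell cannot be told apart.

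Apart from Sp5, for which no gap is given, Nkd1 showed the widest log2 gap between T24 and the median of the other DEN ALIOS tumours. Nkd1 ranged from 1.21 to 3.74 CPM in the 12 control livers (median 2.21) and from 1.97 to 4.12 CPM in the 11 ALIOS livers (median 2.45). In the spontaneous ALIOS tumours it stood at 9.62 CPM in T2, 4.50 in T5, 3.14 in T6, 2.76 in T3, 1.26 in T11, 0.958 in T10, 0.935 in T12, 0.890 in T4, 0.556 in T9, 0.496 in T14, 0.233 in T8 and 0.226 in T13 (median 0.946). T2 and T5 exceeded every ALIOS liver, 2 tumours lay within them and 8 were below, and T7 with 1.93 CPM lay within the control livers. Nkd1 in the DEN ALIOS tumours was 365 CPM in T24, 8.05 in T23, 6.58 in T25, 2.05 in T22, 1.02 in T26, 0.903 in T15, 0.776 in T27 and 0.350 in T16. T23, T24 and T25 were again above every ALIOS liver, T22 within them and 4 below, with a median of 1.53 CPM, or 1.02 without T24. Nkd1 in the DEN control tumours was 1.15 CPM in T17, 1.04 in T21, 1.02 in T19, 0.650 in T20 and 0.486 in T18, below every control liver in all 5.

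Notum, whose exons are in part covered by Notumos, followed the same pattern. Notum ranged from 7.09 to 21.4 CPM in the 12 control livers (median 12.5) and from 6.24 to 11.8 CPM in the 11 ALIOS livers (median 9.49). Its spontaneous ALIOS tumours held 16.1 CPM in T2, 13.3 in T3, 7.14 in T6, 7.04 in T5, 4.22 in T12, 2.77 in T10, 1.80 in T14, 1.53 in T8, 1.49 in T4, 1.43 in T11, 1.36 in T9 and 0.614 in T13 (median 2.28). T2 and T3 were above every ALIOS liver, 2 lay within them and 8 below, and T7 with 6.91 CPM was just below the control livers. The DEN ALIOS tumours had Notum at 290.2 CPM in T24, 34.6 in T25, 15.7 in T23, 5.88 in T22, 1.60 in T15, 1.34 in T26, 1.03 in T27 and 0.904 in T16. T23, T24 and T25 exceeded every ALIOS liver and 5 tumours were below them all; the median was 3.74 CPM and 1.60 without T24. Notum in the DEN control tumours was 4.32 CPM in T21, 3.80 in T19, 3.46 in T20, 0.842 in T17 and 0.243 in T18, and all 5 were below every control liver. Notumos itself had a median of 0.315 CPM over the livers and its highest level, 46.2 CPM, in T24.

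Rnf43 encodes 1 of the ubiquitin ligases. It ranged from 11.97 to 30.6 CPM in the 12 control livers (median 21.6) and from 15.8 to 27.9 CPM in the 11 ALIOS livers (median 22.4). Rnf43 in the spontaneous ALIOS tumours was 29.1 CPM in T2, 28.8 in T5, 24.7 in T3, 24.5 in T6, 21.5 in T12, 21.5 in T4, 20.8 in T14, 20.6 in T11, 20.4 in T9, 19.4 in T8, 17.9 in T13 and 17.1 in T10 (median 21.1). T2 and T5 were just above the ALIOS livers and the other 10 within them, as was T7 with 21.9 CPM among the control livers. Rnf43 in the DEN ALIOS tumours was 184 CPM in T24, 40.4 in T25, 26.9 in T23, 26.02 in T22, 22.5 in T26, 18.7 in T15, 15.1 in T27 and 8.87 in T16. T24 and T25 were above every ALIOS liver, T16 and T27 below, and the median of 24.2 CPM (22.5 without T24) was close to that of the livers. The DEN control tumours had Rnf43 at 25.1 CPM in T21, 24.96 in T17, 23.3 in T20, 19.1 in T19 and 19.1 in T18, all 5 within the control livers.

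Znrf3 ranged from 6.68 to 13.3 CPM in the 12 control livers (median 10.7) and from 6.93 to 11.2 CPM in the 11 ALIOS livers (median 9.75). In spontaneous ALIOS tumours Znrf3 stood at 12.9 CPM in T5, 12.5 in T9, 12.2 in T6, 10.9 in T4, 10.4 in T12, 9.38 in T11, 9.25 in T13, 9.19 in T10, 8.91 in T2, 6.70 in T8, 6.63 in T14 and 6.01 in T3 (median 9.32). T5, T6 and T9 were above every ALIOS liver, T3, T8 and T14 below, and 6 within. T7 had 9.23 CPM, within the control livers. Znrf3 in the DEN ALIOS tumours was 31.9 CPM in T24, 10.2 in T27, 10.1 in T22, 10.1 in T26, 9.82 in T25, 9.33 in T15, 9.03 in T23 and 8.58 in T16. T24 alone was above the ALIOS livers and the other 7 lay within them, with a median of 9.94 CPM (9.82 without T24). Znrf3 in the DEN control tumours was 9.83 CPM in T21, 9.29 in T18, 7.48 in T20, 6.84 in T17 and 5.56 in T19, of which only T19 was below every control liver.

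Lgr5, the R-spondin receptor, was a gene of low level outside T24 and T25. Lgr5 ranged from 1.75 to 6.31 CPM in the 12 control livers (median 2.89) and from 1.55 to 4.96 CPM in the 11 ALIOS livers (median 2.66). Lgr5 in the spontaneous ALIOS tumours was 5 CPM in T2, 3.99 in T3, 3.38 in T6, 2.15 in T5, 1.84 in T12, 1.10 in T10, 0.838 in T4, 0.663 in T11, 0.600 in T8, 0.587 in T9, 0.372 in T14 and 0.0323 in T13 (median 0.969). T2 was just above every ALIOS liver, 4 tumours lay within them and 7 below, and T7 with 4.69 CPM lay within the control livers. The DEN ALIOS tumours had Lgr5 at 54.1 CPM in T24, 14.2 in T25, 5.83 in T23, 1.92 in T22, 0.933 in T15, 0.905 in T26, 0.488 in T27 and 0.204 in T16. T23, T24 and T25 exceeded every ALIOS liver, T22 lay within them and 4 below, with a median of 1.43 CPM, or 0.933 without T24. Lgr5 in the DEN control tumours was 1.99 CPM in T21, 0.976 in T20, 0.867 in T19, 0.270 in T17 and 0.0607 in T18, and T21 was the only tumour of the 5 within the control livers.

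Tbx3, a transcription factor of the T-box family, fell into the same split. Tbx3 ranged from 8.39 to 22.4 CPM in the 12 control livers (median 16.8) and from 12.7 to 24.5 CPM in the 11 ALIOS livers (median 19.3). Tbx3 in the spontaneous ALIOS tumours was 30.7 CPM in T2, 18.3 in T3, 14.5 in T6, 14.3 in T5, 3.44 in T12, 2.73 in T10, 1.83 in T14, 1.56 in T11, 1.49 in T4, 1.27 in T8, 0.804 in T9 and 0.259 in T13 (median 2.28). T2 was above every ALIOS liver, 3 tumours within them and 8 below, and T7 with 5.24 CPM was below every control liver. The DEN ALIOS tumours had Tbx3 at 160 CPM in T24, 54.7 in T25, 32.7 in T23, 7.90 in T22, 4.50 in T26, 2.62 in T15, 1.49 in T27 and 0.934 in T16. T23, T24 and T25 were above every ALIOS liver and the other 5 below every one; the median was 6.20 CPM and 4.50 without T24. Tbx3 in the DEN control tumours was 9.30 CPM in T19, 6.98 in T20, 2.90 in T21, 2.09 in T17 and 0.486 in T18, with T19 alone within the control livers.

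Sp5 had the lowest level per length of the 10 genes in liver, with 5 to 17 counts per control liver and 6 to 29 per ALIOS liver. Sp5 ranged from 0.158 to 0.626 CPM in the 12 control livers (median 0.340) and from 0.210 to 0.836 CPM in the 11 ALIOS livers (median 0.502). In spontaneous ALIOS tumours it stood at 1.56 CPM in T3, 1.56 in T2, 0.538 in T6, 0.331 in T5, 0.105 in T4, 0.0930 in T14, 0.0355 in T10, 0.0333 in T8 and at 0 in each of T9, T11, T12 and T13 (median 0.0642). A limit of 3 counts was chosen, and levels under it are not read as detected. At the depth of T9, T11, T12 and T13 it is 0.0927, 0.0995, 0.0905 and 0.0970 CPM in turn. T8 and T10, with 1 count each, are under this limit too (0.106 CPM in T10), as is the median. T2 and T3 were above every ALIOS liver, 2 lay within them and 8 below, and T7 with 0.234 CPM lay within the control livers. The DEN ALIOS tumours had Sp5 at 35.02 CPM in T24, 2.54 in T25, 2.02 in T23, 0.390 in T22, 0.0549 in T26 and at 0 in each of T15, T16 and T27. T23, T24 and T25 exceeded every ALIOS liver, T22 lay within them and 4 were below, and the limit of 3 counts was 0.0903, 0.0875 and 0.0862 CPM in T15, T16 and T27. The median was 0.222 CPM, and 0.0549 without T24, which had 1602 counts. T26, with 2 counts, is under its limit of 0.0823 CPM and is itself the median without T24. Sp5 in the DEN control tumours was 0.150 CPM in T19, 0.148 in T20, 0.0273 in T21 and at 0 in each of T17 and T18, all below every control liver, with a limit of 0.101 and 0.0911 CPM in T17 and T18. T21, with 1 count and the median of the 5, is under its limit of 0.0820 CPM. Values under the limit are not told apart from 0.

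Glul, whose enzyme makes glutamine from glutamate and ammonia, is confined to the hepatocytes next to the central vein in normal liver. Glul ranged from 542 to 1003 CPM in the 12 control livers (median 809) and from 509 to 1229.5 CPM in the 11 ALIOS livers (median 907). In the spontaneous ALIOS tumours it stood at 1377 CPM in T2, 982 in T6, 551 in T3, 378 in T5, 149.7 in T12, 88.3 in T4, 58.96 in T10, 41.1 in T11, 32.7 in T14, 32.3 in T8, 15.9 in T13 and 11.6 in T9, with a median of 73.6. T2 was above every ALIOS liver, T3 and T6 within them and 9 tumours below, and T7 with 489 CPM was below every control liver. Glul in the DEN ALIOS tumours was 21609.8 CPM in T24, 2643 in T25, 851 in T23, 559 in T22, 98.4 in T26, 66.4 in T27, 57.7 in T15 and 21.9 in T16. T24 and T25 were above every ALIOS liver, T22 and T23 within them and 4 below; the median of 329 CPM became 98.4 without T24. The DEN control tumours had Glul at 139.6 CPM in T19, 115 in T20, 92.2 in T21, 43.7 in T17 and 34.7 in T18, all 5 below every control liver.

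Lect2, which encodes a protein that hepatocytes secrete, spread more widely among spontaneous tumours than among livers. Lect2 ranged from 116 to 235 CPM in the 12 control livers (median 147) and from 138 to 203 CPM in the 11 ALIOS livers (median 166). Lect2 in the spontaneous ALIOS tumours was 214 CPM in T2, 142 in T3, 116 in T6, 59.04 in T5, 37.5 in T12, 36.8 in T10, 17.5 in T11, 17.4 in T4, 14.9 in T14, 11.1 in T8, 8.93 in T9 and 0.970 in T13 (median 27.1). T2 was above every ALIOS liver, T3 within them and 10 tumours below, and T7 with 77.1 CPM was below every control liver. The DEN ALIOS tumours had Lect2 at 1364 CPM in T24, 319.9 in T25, 151 in T23, 48.5 in T22, 26.6 in T26, 17.97 in T15, 12.4 in T27 and 8.23 in T16. T24 and T25 were above every ALIOS liver, T23 within them and 5 below, with a median of 37.6 CPM, or 26.6 without T24. Lect2 in the DEN control tumours was 35.8 CPM in T19, 27.1 in T20, 26.6 in T21, 12.8 in T17 and 1.85 in T18, all 5 below every control liver.

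Spontaneous ALIOS tumours as a group had lower levels of several of the 10 genes than ALIOS livers. Lect2 fell by 1.83 on the log2 scale (SE 0.52, adjusted p 0.00497) and Glul by 1.79 (SE 0.64, adjusted p 0.0212), each below every liver in at least 9 of 12 tumours. Axin2 fell by 1.45 (SE 0.48, adjusted p 0.0141), Tbx3 by 1.57 (SE 0.54, adjusted p 0.0179) and Notum by 1.10 (SE 0.41, adjusted p 0.0268). These are the 5 of the 10 that were called, all lower, where 25.9% of the 14183 genes tested were called lower and 26.9% higher. None of the 10 was higher, by edgeR at an unadjusted p under 0.05 or by DESeq2. Lgr5 had a log2 fold change of -0.95 (adjusted p 0.0693), Sp5 -0.78 (adjusted p 0.327), Nkd1 -0.50 (adjusted p 0.371), and Rnf43 and Znrf3 -0.16 each (adjusted p 0.142 and 0.235). The fold changes use TMM factors, which CPM does not. In CPM the means of Rnf43 (22.2 in tumours, 21.9 in livers) and Znrf3 (9.58 and 9.50) were slightly higher in tumours, so the sign of both is uncertain. The median of the 10 was -1.03 beside 0.01 over all genes. In 1 fit over all groups Notum was no longer called.

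T2 and T6, the spontaneous tumours with little Gpc3, were left out in a comparison added after the values were seen. They also had the highest Axin2 and Glul of these tumours, and T2 the highest Nkd1, Notum, Rnf43, Lgr5, Tbx3 and Lect2. Leaving them out therefore had to lower the tumour mean of these genes, and the added calls are no separate evidence of a fall. Without them 7 of the 10 genes were lower, Nkd1 among them with a log2 fold change of -1.15 (SE 0.39, adjusted p 0.0151) and Lgr5 with -1.35 (SE 0.42, adjusted p 0.00911). Glul then had -2.88 (adjusted p 0.00016), Lect2 -2.44 (adjusted p 0.000214) and Axin2 -2.05 (adjusted p 0.000498), and Sp5 with -1.37 did not pass (adjusted p 0.0854). The median of the 10 was -1.42 beside 0.06 over all genes, and 26.2% of 14170 genes were called lower and 32.1% higher.

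Other genes of the pathway, from lists that hold none of the 10, moved in both directions in spontaneous tumours. Of the 20 other pericentral genes 16 were lower and 1 higher (median log2 fold change -2.20), among them Cyp27a1, a sterol hydroxylase, with -2.18 (SE 0.41, adjusted p 0.000105) and Gulo with -1.45 (SE 0.23, adjusted p 1.55e-05). The gene that rose was Slc1a4, an amino acid transporter, by 1.92 (SE 0.20, adjusted p 1.43e-07). Of 20 periportal genes 11 were lower and 5 higher (median -0.85), with Cps1 and Ass1 of the urea cycle at -1.33 and -1.74. Among ligands and receptors, 2 of 6 Wnt ligands tested were higher and 1 lower, Rspo3 was the R-spondin tested and fell by 1.27 (SE 0.45, adjusted p 0.0203), and 3 of 12 receptors were higher, with Fzd3 at 6.01 (SE 0.72, adjusted p 6.87e-07), and 2 lower. Fzd3 had a median of 0.0314 CPM in the ALIOS livers, under the limit of 3 counts, so the size of its rise is uncertain. Of the secreted antagonists Dkk4 was lower and the other 2 tested were not called. Of 11 genes of the destruction complex 3 were higher and 2 lower, and Ctnnb1, which encodes beta-catenin, had 0.32 (SE 0.14, adjusted p 0.0527). Of 10 TCF/LEF factors and cofactors 6 were higher and 1 lower, and of 10 other Wnt targets 3 were higher and 1 lower, with Bmp4 at 2.17 (SE 0.27, adjusted p 9.56e-07). Porcn and Wls, the genes of Wnt secretion, were not called.

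Markers of other cell types also differed between spontaneous tumours and livers. Macrophage markers were lower for 5 of 8 genes, with sums of 29.0 to 463 CPM (median 122) in the tumours against 211 to 795 (median 349.8) in the ALIOS livers. The 11 markers of central vein and sinusoidal endothelium, which include Rspo3 and Wnt2, were higher for 3 and lower for 2, with median sums of 174 and 171 CPM. Of 8 stellate cell and fibroblast genes 1 was higher and 2 lower, of 6 cholangiocyte genes 2 were higher, of 5 lymphocyte genes tested 1 was higher, and of 4 red cell genes 1 was lower. Hepatocyte markers, led by Alb, summed to a median of 188644.1 CPM in the tumours and 107281.9 CPM in the livers, with 2 of 9 higher and 3 lower. All genes of these 7 lists were detected in both groups. Cela1 made up most of the pancreas list, with Amy2b at 0 in the tumours, and was not called. The kidney list reached 22.8 CPM in these tumours, with Slc12a1 most abundant and Nphs1 at 0. Their part in the levels of the 10 genes was not tested.

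The DEN control tumours were lower than control livers, none of them labelled with DEN, in nearly all of the 10 genes. Glul fell by 3.27 on the log2 scale (SE 0.32, adjusted p 7.75e-08), Lect2 by 2.91 (SE 0.44, adjusted p 1.79e-05) and Notum by 2.43 (SE 0.41, adjusted p 6.92e-05), each with all 5 tumours below all 12 livers. Sp5 fell by 2.42, Axin2 by 2.30, Lgr5 by 2.16, Tbx3 by 1.86, Nkd1 by 1.57 and Znrf3 by 0.53, with adjusted p from 4.9e-05 (Nkd1) to 0.00225 (Sp5). Thus 9 of the 10 were lower, where 24.4% of 14731 genes were called lower and 27.3% higher. None of the 10 was higher by edgeR, at an unadjusted p under 0.05 as well, or by DESeq2. Rnf43 had -0.03 (SE 0.15, adjusted p 0.889), and leaving out T18 turned it to 0.02. The median of the 10 was -2.23 beside 0.03 over all genes. In 1 fit over all groups Tbx3, Nkd1 and Sp5 were not called, which left 6, where 22.4% of all genes were called lower.

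Most other pericentral and periportal genes were lower too, while the lists of the pathway moved in both directions. Of the 20 other pericentral genes 17 were lower and 1, Slc1a4, higher (median -3.43), with Oat, an enzyme of ornithine metabolism, at -4.41 (SE 0.42, adjusted p 5.88e-08). Of the 20 periportal genes 12 were lower and 4 higher (median -0.85). Among the signals, Rspo3 fell by 1.69 (SE 0.33, adjusted p 0.000251) and Wnt2, made by endothelium of the central vein, by 1.97 (SE 0.30, adjusted p 1.85e-05), while 1 of the 6 Wnt ligands was higher. Wls rose by 0.91 and Porcn fell by 0.84. Of 12 receptors 3 were higher and 3 lower, of 4 secreted antagonists 1 was higher and 2 lower, and of 10 TCF/LEF factors and cofactors 5 were higher and 1 lower. Ctnnb1 rose by 0.54 (SE 0.10, adjusted p 0.000114), 1 of 2 higher among the 11 genes of the destruction complex, where 1 was lower. Of 10 other Wnt targets 4 were higher and 0 lower, by edgeR, with Ccnd1 at 3.12 (SE 0.17, adjusted p 1.75e-11) and Bmp4 at 1.93 (SE 0.16, adjusted p 7.05e-09). Of the markers, 5 of 8 stellate cell and fibroblast genes were higher and 2 lower, and 5 of 11 endothelial genes were lower and 3 higher. Slc12a1, the only gene of the kidney list that was tested, rose by 9.98 (SE 0.43, adjusted p 9.25e-13). The 6 genes of that list summed to a median of 8.28 CPM in these tumours, with Kap, Umod, Slc34a1 and Nphs1 at 0. In the DEN ALIOS tumours without T24 Slc12a1 rose by 9.95 (SE 0.81, adjusted p 4.63e-08). No gene of the kidney list had a median above 0 in the livers of either diet, so the size of both rises is uncertain. Their part in the fall of the 10 genes was not tested.

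The DEN ALIOS tumours gave a different picture, which rested on T24. With T24, Nkd1 was higher than in ALIOS livers by 3.87 on the log2 scale (SE 1.03, adjusted p 0.00458), Sp5 by 2.95 (SE 1.01, adjusted p 0.0219) and Axin2 by 1.92 (SE 0.76, adjusted p 0.0448), though only 3 of the 8 tumours were above every liver for each of these genes. These 3 of the 10 were called, all higher, where 27.7% of 14434 genes were called higher and 19.8% lower, and the median of the 10 was 1.51 beside 0.08. Notum had 1.96 (adjusted p 0.0555), Glul 1.51 (adjusted p 0.164), Lgr5 1.50 (adjusted p 0.0879), Rnf43 0.73 (adjusted p 0.118), Tbx3 0.51 (adjusted p 0.544), and Znrf3 and Lect2 0.21 each (adjusted p 0.343 and 0.817). These livers are the ones the spontaneous tumours were compared with, so the comparisons share them.

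Without T24 none of the 10 genes was called by edgeR, where 29.8% of 14506 genes were called higher and 22.6% lower. At an unadjusted p under 0.05 only Lect2 passed, with a log2 fold change of -1.20 (SE 0.55, adjusted p 0.0729). Nkd1 had -0.03 (SE 0.45, adjusted p 0.965), Axin2 -0.07 (SE 0.51, adjusted p 0.914), Glul -0.72 (SE 0.66, adjusted p 0.372) and Sp5 0.29 (SE 0.75, adjusted p 0.762). Lgr5 had 0.14 (adjusted p 0.856), Tbx3 -0.52 (adjusted p 0.467), Notum -0.21 (adjusted p 0.773), Rnf43 -0.07 (adjusted p 0.757) and Znrf3 -0.08 (adjusted p 0.432). In the fit with T24 the call of Axin2 was lost without a filter on low counts (adjusted p 0.0612). The median of the 10 without T24 was -0.08 beside 0.05 over all genes. DESeq2, which replaces single counts far from the rest of a group, gave 1 call, Lect2 at -1.07 (adjusted p 0.0498). It did so after replacing the counts of T24 for 6 of the 10 genes: Lect2 (62414 by 8499), Nkd1 (16694 by 141), Axin2 (5830 by 228), Glul (988677 by 45944), Notum (13278 by 485) and Sp5 (1602 by 27). Its call of Lect2 therefore does not rest on the count measured in T24. In 1 fit over all groups with T24, 6 of the 10 were higher, as were 3892 of the 14434 genes tested.

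**Figure D2:**
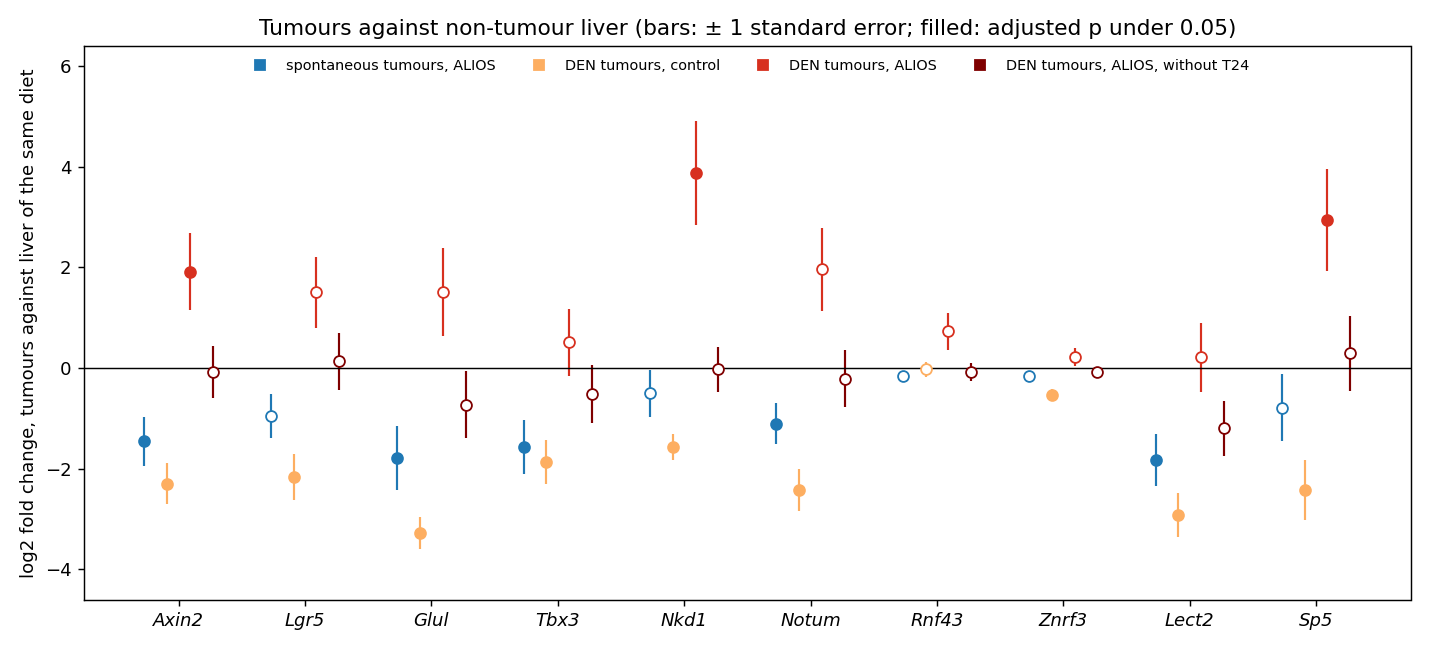
Log2 fold change of each gene in tumours against non-tumour livers of the same diet, with bars of 1 standard error; filled points have an adjusted p under 0.05. The 5 DEN control tumours lie lowest for 9 genes, all but Rnf43, with Glul at -3.27, and the DEN ALIOS tumours drop from 3.87 to -0.03 for Nkd1 when T24 is left out.

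The other pericentral genes of the DEN ALIOS tumours were lower for 8 and higher for 3 of 20 (median -1.25), and without T24 lower for 16 and higher for 1 (median -1.88). With T24 in the data Slc1a4 rose by 3.17 (SE 0.28, adjusted p 8.44e-08), and Cyp7a1, the rate-limiting enzyme of bile acid synthesis, fell by 2.91 (SE 0.77, adjusted p 0.00439). Without T24 they had 2.93 (adjusted p 6.16e-08) and -3.36 (adjusted p 0.00186). Of the 20 periportal genes 8 were lower and 1 higher with T24, and 10 lower and 4 higher without it. Ctnnb1 rose by 0.49 (SE 0.13), with an adjusted p of 0.00405 with T24 and 0.00534 without it. Tcf7, a TCF factor, rose by 2.15 (SE 0.47, adjusted p 0.000962), and by 0.98 (SE 0.18, adjusted p 0.000184) without T24. With T24 Bmp4 rose by 2.05 (SE 0.20, adjusted p 3.04e-07), Rspo3 fell by 1.04 (SE 0.33, adjusted p 0.0134) and Dkk4 fell by 3.33 (SE 0.68, adjusted p 0.000508). Without it Bmp4 had 2.15 (adjusted p 8.73e-08), Rspo3 -1.03 (adjusted p 0.0187) and Dkk4 -3.18 (adjusted p 0.000888). Among cell type markers without T24, macrophage genes were lower for 3 of 8 (median -0.99). Red cell genes were higher for 3 and lower for 1 of 4 (median 1.12), and hepatocyte genes higher for 3 and lower for 2 of 9. Endothelial genes were higher for 3 and lower for 2 of 11, and stellate cell and fibroblast genes higher for 1 and lower for 2 of 8. Their part in the levels of the 10 genes was not tested.

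A direct comparison of DEN and spontaneous tumours on the ALIOS diet called no gene at all by edgeR. The log2 fold changes of the 10 genes ran from 0.33 (Znrf3, adjusted p 0.879) to 4.36 (Nkd1, SE 1.12, adjusted p 0.229), with Axin2 at 3.34 (SE 0.94, adjusted p 0.232) and Glul at 3.27 (SE 1.13, adjusted p 0.365), and a median of 2.73 beside 0.00 over all genes. Of 14845 genes tested 0% were called higher and 0% lower, 1079 had an unadjusted p under 0.05 and DESeq2 called 75, among them Axin2 with 3.34 (SE 0.90, adjusted p 0.0462). Here DESeq2 replaced the counts of T24 for Glul, Nkd1, Notum and Sp5 and that of T2 for Nkd1, but kept the 5830 counts of Axin2 in T24. Without T24 Axin2 had 1.32 by edgeR (adjusted p 0.817). In 1 fit over all groups 229 genes were called, 6 of the 10 among them, all higher, where 1.27% of all genes were called higher. Without T24 the fold changes of the 10 ran from 0.02 (Rnf43) to 1.32 (Axin2) with a median of 0.91, and 0% of 14940 genes were called higher and 0% lower by edgeR, with 1072 at an unadjusted p under 0.05. Axin2 levels of 0.0647 to 5.67 CPM in spontaneous tumours and 0.379 to 14.5 CPM in the 7 other DEN tumours overlapped for the most part.

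Between the diets, DEN tumours likewise showed large fold changes with large errors. Sp5 did not pass the filter on low counts, and the other 9 genes had ALIOS-to-control log2 fold changes from 0.54 (Znrf3, adjusted p 0.653) to 5.53 (Nkd1, SE 1.90, adjusted p 0.402), with Glul at 4.98 (SE 1.69, adjusted p 0.397) and a median of 3.34 beside 0.04. None of the 9 was called by edgeR, where 0% of 14944 genes were called higher and 0.0134% lower, 1273 genes had an unadjusted p under 0.05 and DESeq2 called 155 genes. Without T24 the fold changes ran from -0.08 (Rnf43) to 2.69 (Glul, adjusted p 0.351), with a median of 1.64, none of the 9 was called, and 0.0473% of 14814 genes were called higher and 0.0473% lower. In 1 fit over all groups 5 of the 9, namely Axin2, Lgr5, Glul, Nkd1 and Notum, were called higher, where 0.763% of all genes were. Nkd1 was 0.486 to 1.15 CPM in the 5 control tumours and 0.350 to 8.05 CPM in the 7 ALIOS tumours other than T24, so the groups overlapped.

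The diet effect in DEN tumours was also tested against the diet effect in liver, in a fit that shares the tumours and livers of the comparisons above. The difference was called for 5 of the 10 genes, all higher in tumours: Nkd1 5.49 (SE 1.34, adjusted p 0.0253), Glul 4.81 (SE 1.17, adjusted p 0.0253), Notum 4.41 (SE 1.12, adjusted p 0.0304), Axin2 4.24 (SE 1.06, adjusted p 0.0287) and Lgr5 3.68 (SE 0.99, adjusted p 0.0377), on the log2 scale. Of 15606 genes 1.04% were called higher and 1.23% lower. Sp5 had 5.40 (adjusted p 0.0528), Lect2 3.15 (adjusted p 0.0607), Tbx3 2.38 (adjusted p 0.153), Rnf43 0.77 (adjusted p 0.413) and Znrf3 0.75 (adjusted p 0.0714), and the median of the 10 was 3.96 beside 0.04. Without T24 these 5 were not called, with Glul at 2.51 (adjusted p 0.0558), Lgr5 at 2.27 (adjusted p 0.0805), Axin2 at 2.19 (SE 0.70, adjusted p 0.0616), Notum at 2.18 (adjusted p 0.0787) and Nkd1 at 1.52 (adjusted p 0.104). Znrf3 was then called at 0.44 (SE 0.13, adjusted p 0.036), as 1 of 10, where 2.12% of 15540 genes were called higher and 2.59% lower. Leaving out 1 DEN control tumour at a time gave 0 calls without T17, 0 without T18, 4 without T19, 1 without T20 and 5 without T21, by edgeR, where 0.367% (T17) to 1.31% (T21) of all genes were called higher. DESeq2 called 7 of the 10 with all libraries, after replacing the counts of T24 for Glul, Nkd1 and Notum, and Nkd1, at 1.50 there, was not among the 7, where 2.06% of all genes were called higher. Without a filter on low counts Lgr5 was not called (adjusted p 0.055). Of the 20 other pericentral genes 3 were higher, Oat at 4.74 (SE 1.13, adjusted p 0.0218), Lhpp at 4.46 and Rhbg at 4.07, and without T24 only Oat at 2.72 (adjusted p 0.0404). Markers of other cell types moved too without T24: the difference was lower for 3 of 8 stellate cell and fibroblast genes (median -0.81) and 2 of 8 macrophage genes (median -0.54), and higher for 2 of 11 endothelial genes (median 0.42). Their summed levels in DEN tumours, ALIOS without T24 and then control, had medians of 162.8 and 162.9 CPM for the stellate cell and fibroblast genes, led by Dcn. They were 134 and 148 CPM for the macrophage genes, led by Cd5l, and 192 and 148 CPM for the endothelial genes, led by Stab2 and Kdr. No gene of these 3 lists was at 0 throughout a group. Their part in the difference was not tested.

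Each tumour was then set against the median liver of its diet, in log2 CPM. The median difference over the 10 genes was highest in T24 at 4.44, followed by T25 at 1.52, T23 at 0.74, T2 at 0.64, T6 at 0.12 and T3 at 0.03. T5, T7 and T22 were between -0.40 and -0.56. The other tumours ran from -1.18 (T19) down to -4.33 (T13) and -4.56 (T18), with 8 to 10 of the 10 genes below the liver median in each. Over all genes the median difference of a tumour was between -0.10 and 0.36. T24 and T25 had none of the 10 genes below the liver median, and T2 had 1.

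**Figure D3:**
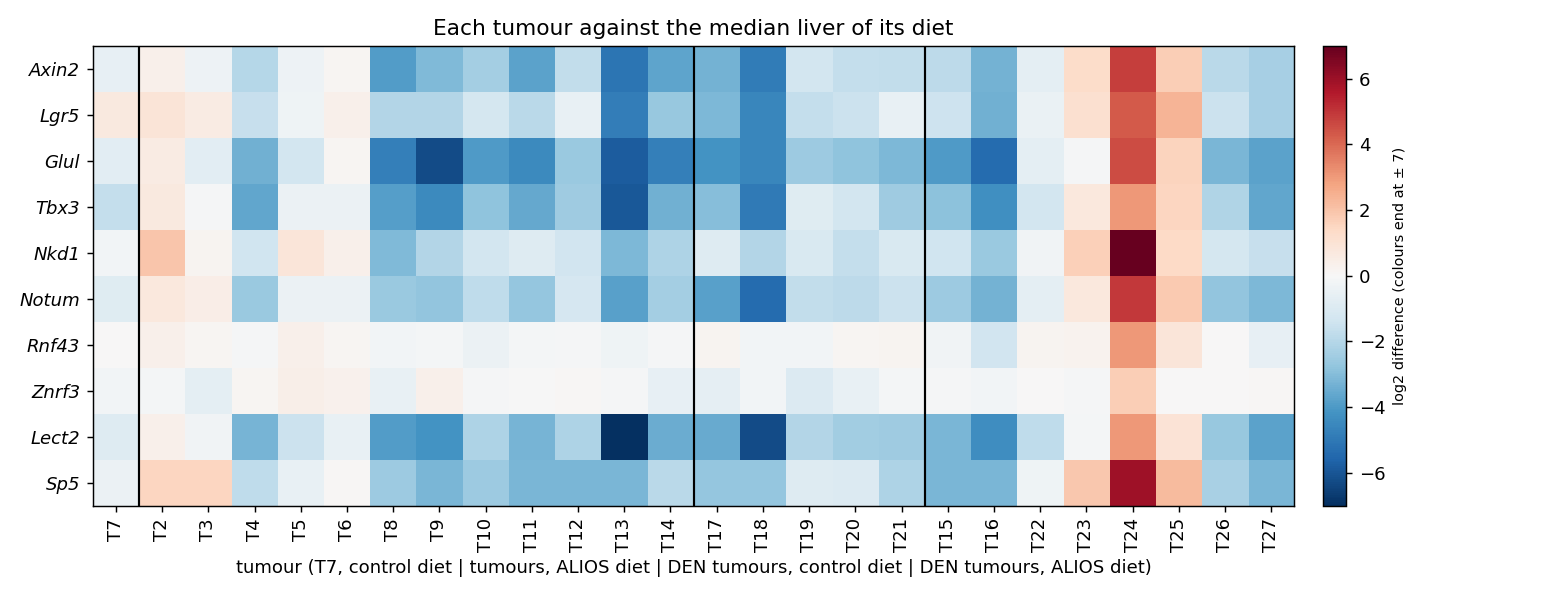
Log2 difference of each gene in each tumour from the median non-tumour liver of the same diet; columns are tumours in 4 groups and colours end at 7 on either side. T24 is above the liver median for all 10 genes (median 4.44), T18 and T13 are lowest (medians -4.56 and -4.33), and Rnf43 and Znrf3 are pale in most columns.

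The other pericentral and periportal genes separated T24 from the rest. The median over the 20 pericentral genes was 0.83 in T24, between -0.11 and -0.27 in T2, T23 and T25, -1.26 in T7 and as low as -6.38 in T9. The median over the 20 periportal genes lay between -1.50 (T26) and 0.01 (T23) in every tumour but T24, where it was -5.73. Afp and Gpc3, genes of foetal liver and liver tumours, were at most 1.47 and 1.22 CPM in livers. Among the tumours with a positive median over the 10 genes, T2 had 3.91 CPM of Afp, T6 5.68, T23 21.6, T3 243, T25 766 and T24 3178.8. Ctnnb1 ran from 176 to 466 CPM in the tumours and was 385 CPM in T24, within the range of the other DEN ALIOS tumours (193 to 418).

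**Figure D4:**
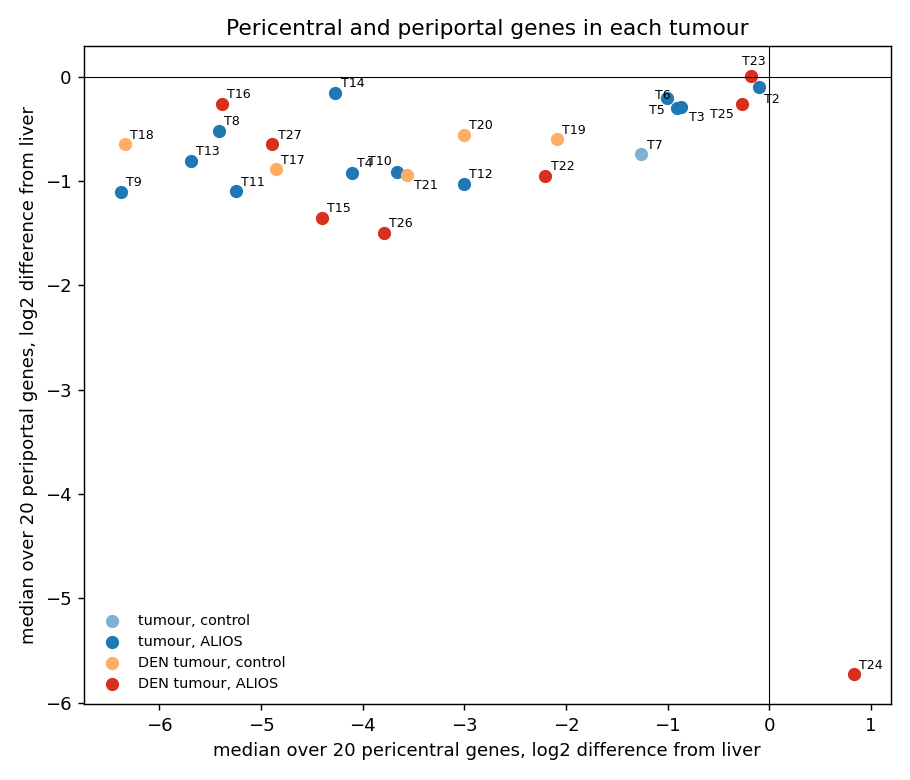
Each point is a tumour, placed by its median log2 difference from the median liver of its diet over 20 pericentral genes (horizontal) and 20 periportal genes (vertical), lists that hold none of the 10 genes. T24 sits at 0.83 and -5.73, apart from the others, which spread along the horizontal axis from -6.38 (T9) to -0.11 (T2).

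T24 was above each of the other 7 DEN ALIOS tumours for all 10 genes, as were 37.1% of 12615 genes, while 20.3% were below. Its log2 gap to the median of those 7 was 8.40 for Nkd1, 7.78 for Glul, 7.45 for Notum, 6.69 for Axin2, 5.77 for Lgr5, 5.68 for Lect2, 5.13 for Tbx3, 3.03 for Rnf43 and 1.69 for Znrf3. For Sp5 no gap is given because the median of the 7, T26 with 2 counts, is under the limit of 3 counts, while T24 had 1602 counts. The median over all genes was 0.23. T24 was above the 7 for 16 of 20 other pericentral genes and below them for 17 of 20 periportal genes. The other lists of the pathway lay nearer to all genes: T24 was above the 7 for 8 of 19 Wnt ligands, 4 of 10 secreted antagonists, 1 of 4 R-spondins and neither of the genes of Wnt secretion. It was above for 7 and below for 1 of 16 other Wnt targets, above for 7 and below for 3 of 17 receptors, above for 5 and below for 3 of 11 genes of the destruction complex, and above for 5 and below for 2 of 11 TCF/LEF factors and cofactors. Genes named after the values were seen are Lef1, a TCF/LEF factor, at 25.1 CPM against at most 0.731 in the 7, and Apcdd1, a Wnt inhibitor, at 267 against at most 1.25. Cps1 of the urea cycle, also named after its value was seen, was 4.28 CPM in T24 and 928 to 1412 in the 7. Among markers, 5 of 8 stellate cell and fibroblast genes were above, with a sum of 1481.0 CPM against 79.3 to 219.8, 5 of 8 macrophage genes were above, and 6 of 9 hepatocyte genes were below. Their part in the levels of T24 was not tested.

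Most of the 10 genes varied together across tumours, with Axin2 as the reference. Over the 12 spontaneous ALIOS tumours the log2 CPM of Axin2 correlated with that of Lgr5 at Pearson's r 0.945 (permutation p 1e-05, adjusted p 3e-05; Spearman's rho 0.930, permutation p 4e-05), and r was 0.939 without T2 and T13, the tumours farthest from the median. The p of 1e-05 is the smallest that 100000 permutations give, and all tests are two-sided and adjusted over 27 relations. Glul had r 0.941 (permutation p 1e-05, adjusted p 3e-05; rho 0.923, p 9e-05; 0.927 without both tumours). Tbx3, Notum, Lect2, Nkd1, Rnf43 and Sp5 had r from 0.828 to 0.945 with adjusted p up to 0.00154, rho from 0.772 to 0.909 with permutation p up to 0.00482, and r from 0.741 to 0.904 without T2 and T13. Sp5 was under the limit of 3 counts in T8 to T13, so its r and rho rest mainly on the other tumours. Znrf3 was the exception, with r 0.240 (permutation p 0.444, adjusted p 0.461; rho 0.154, p 0.639; 0.340 without both). Thus 8 of the 9 had an r of at least 0.828, as had 3.77% of 12742 genes.

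Over the 13 DEN tumours all 9 relations were called by Pearson's r. The lowest was 0.691, and 21.2% of 12800 genes had an r with Axin2 at least as high. Lect2 had r 0.986 (permutation p 1e-05, adjusted p 3e-05; rho 0.945, p 2e-05), and 0.967 without T24 and T25, the tumours farthest from the median. Lgr5, Notum, Glul, Tbx3, Sp5 and Nkd1 had r from 0.924 to 0.981, with adjusted p up to 0.000104, rho from 0.758 to 0.940 with permutation p up to 0.00365, and r from 0.839 to 0.955 without T24 and T25. Here Sp5 was under the limit of 3 counts in T15 to T18, T21, T26 and T27. The relation of Znrf3 (r 0.691, permutation p 0.024, adjusted p 0.0324; rho 0.335, p 0.266) rested on T24 and T25, since r was 0.087 without them, and that of Rnf43 (r 0.828, permutation p 0.00119, adjusted p 0.00189; rho 0.692, p 0.0104) fell to 0.430. Without T24 alone, r ran from 0.184 (Znrf3) to 0.978 (Lect2). The 8 ALIOS tumours alone gave r from 0.768 (Znrf3) to 0.992 (Lect2), by exact permutation tests with p from 2.48e-05 to 0.0496, and without T24 r from 0.139 to 0.992. The 5 control tumours were not correlated on their own.

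In the 23 non-tumour livers 3 of the 9 relations were called, and 5.29% of 12043 genes had an r with Axin2 of at least 0.530, the lowest called. The difference between livers and tumours was not tested. Tbx3 had r 0.669 with Axin2 (permutation p 0.00055, adjusted p 0.00106; rho 0.482, p 0.0206) and 0.438 without N8 and N9, the livers farthest from the median. Nkd1 had r 0.586 (permutation p 0.00367, adjusted p 0.0055; rho 0.477, p 0.0229), with 0.369 without them. Rnf43 had r 0.530 (permutation p 0.0105, adjusted p 0.0149; rho 0.269, p 0.212), which fell to 0.109 and so rested on N8 and N9. The other 6 genes were not called, with r from 0.097 (Sp5) to 0.411 (Glul). These relations pool both diets. Within the control diet r was 0.706 for Tbx3, 0.740 for Nkd1 and 0.604 for Rnf43 (permutation p 0.01, 0.00658 and 0.0374, not adjusted). Within the ALIOS diet it was 0.481, 0.041 and 0.318 in turn (permutation p 0.137, 0.907 and 0.336), so none of the 3 passed there. Over all 9 genes r ran from -0.125 to 0.740 within the control diet and from 0.005 (Znrf3) to 0.698 (Notum) within the ALIOS diet. Notum passed an unadjusted 0.05 on both diets, with r 0.633 within the control diet and permutation p 0.0338 and 0.0189 in turn. Lgr5 and Znrf3 passed within the control diet only, with r 0.677 and 0.725 (permutation p 0.016 and 0.0147, not adjusted). Glul, Lect2 and Sp5 passed on neither diet. Without N8 and N9 the control r fell to 0.305 for Notum, 0.452 for Lgr5 and 0.140 for Znrf3. Without N17 and N19, the farthest on the ALIOS diet, r of Notum fell to 0.436.

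**Figure D5:**
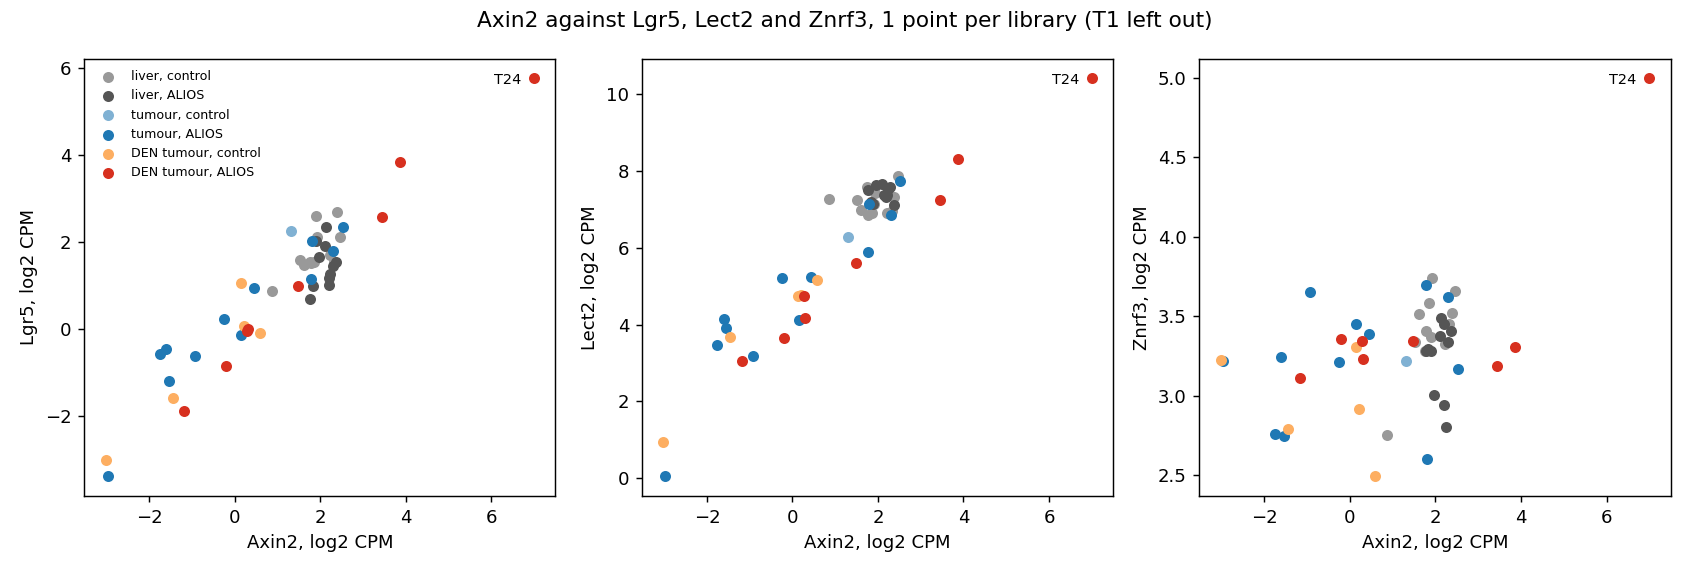
Log2 CPM of Axin2 (horizontal) against Lgr5, Lect2 and Znrf3 (vertical) in every library but T1, coloured by group. Lgr5 and Lect2 rise with Axin2 across tumours (r 0.945 and 0.924 in 12 spontaneous tumours), whereas Znrf3 is level (r 0.240) up to T24.

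Among all genes, those whose levels were most like the pericentral members across the 26 tumours other than T1 were found by Pearson's r of log2 CPM over 17515 genes. Glul was most like Oat (0.971), Cib2 (0.962) and Lhpp (0.953), and Axin2 most like Lgr5 (0.959), Lhpp (0.956) and Notum (0.955). For Lect2 the 3 were Lgr5 (0.973), Tbx3 (0.963) and Axin2 (0.953), and for Notum they were Lgr5 (0.963), Lhpp (0.956) and Axin2 (0.955). Without T24, over 17267 genes, Glul was most like Oat (0.963), Cyp1a2 (0.947) and Cib2 (0.943), and Axin2 like Rgn (0.958), Pon1 (0.957) and 1500017E21Rik (0.949). Lect2 was then most like Lgr5 (0.965), Rgn (0.961) and Cyp2e1 (0.959), and Notum like Lgr5 (0.953), Cyp2c37 (0.945) and Lect2 (0.942). In the 23 livers the closest gene to Glul was Nlrp12 (0.785) and the closest to Axin2 was Nxpe2 (0.814), and none of the 10 genes was among the 3 most like Glul, Axin2, Lect2 or Notum there.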

How the data were processed

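The deposited values were raw counts of read pairs per gene, which the authors made with STAR in 2-pass mode on mm10 and HTSeq on exons of Gencode M6 genes, from stranded mRNA libraries. Neither program's version was stated, nor how the counting treated strand. Libraries held 23798251 to 45751398 counts. The limit of 3 counts was a fixed choice, and the total of each library turns it into CPM. Groups came from the labels. T1 was left out for its kidney transcripts and T7, the only spontaneous control tumour, is given as a value. Each comparison used edgeR 4.0.16 in R 4.3.3 (quasi-likelihood test, TMM factors, filterByExpr on the groups compared), with Benjamini-Hochberg adjustment over all genes tested. The interaction used 4 groups. CPM used library totals and log2 CPM a prior count of 2. Alternatives were DESeq2 1.42.0, its size factors, no filter, 1 fit over all groups, libraries left out and T1 kept in. All 225 pairs of libraries within groups were checked for duplicates, and none was found. Named genes are the 10, up to 4 genes of each other list with the smallest adjusted p, each list's gene with the highest level per length, and the 3 most like Axin2, Glul, Lect2 and Notum. The lists are Wnt ligands, Wnt secretion, R-spondins, receptors, secreted antagonists, destruction complex, TCF/LEF, other targets, pericentral, periportal and 9 marker lists. 1 further gene of the kidney list is not reported. Members and lists were chosen with earlier results of these data known. The tests were tried on simulated data.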

Additional observations from a re-analysis of the deposited data

Results flagged for a closer look

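A sample far from the others was searched for in 20 groups of 4 to 10 samples, and 2 were found, where chance gives about 1. Each group was 1 gene in the DEN ALIOS or the DEN control tumours, since the other sample groups were outside that size. Both are T24 among the DEN ALIOS tumours. T24 had been set apart beforehand for its levels of these genes, so the count is no separate support that it differs. Nkd1 in T24 was 8.51 log2 CPM, against -1.28 to 3.02 in the other 7. Znrf3 in T24 was 4.9959 log2 CPM, against 3.11 to 3.36.

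The diet effect differed between DEN tumours and non-tumour liver, by a test of the difference itself with T24 in the data, for Axin2 (log2 difference 4.24, adjusted p 0.0287), Lgr5 (3.68, adjusted p 0.0377), Glul (4.81, adjusted p 0.0253), Nkd1 (5.49, adjusted p 0.0253) and Notum (4.41, adjusted p 0.0304). Without T24 none of these genes was called by edgeR (adjusted p from 0.0558 for Glul to 0.104 for Nkd1), and Nkd1 fell to 1.52. With T24 kept, leaving out T17, T18 or T20 left 0, 0 and 1 of the 10 called in turn.

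T1, a library the comparisons leave out, held 3 of the 10 genes above every non-tumour liver and 5 below. Of 12615 genes 56.7% were above and 14.6% below in T1, so the 3 are no result about these genes. Notum was 26.1 CPM in T1 and 6.24 to 21.4 in livers, Znrf3 was 14.8 CPM against 6.68 to 13.3, and Sp5 was 6.91 CPM against 0.158 to 0.836.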

How the results depend on the processing

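Of the fold changes of single genes under an alternative, 457 kept direction and call, 33 lost the call, 21 gained it and 17 reversed. Of the counts, 78 stayed within 1.5 times and 30 did not. Of the correlations, 55 kept direction and call, 7 lost it and 1 reversed. DESeq2 size factors in place of TMM factors changed no direction and no call of the 10. Leaving out T2, T6 or T23, and the search for like genes without T24, were added after the data were seen. No paired analysis was possible because the labels tie no tumour to a liver of the same mouse. Sp5, with 5 to 29 counts in livers and 0 in 9 tumours, is limited by depth.

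In non-tumour liver, 2 of the 10 genes were called, 1 without the filter, and 0 of the 10 and 440 of all genes in 1 fit over all groups (edgeR). With T1 kept in, Sp5 in spontaneous tumours reversed to 0.31. For DEN ALIOS tumours against liver, DESeq2 called 1 of the 10 and reversed Axin2 to -0.12, Glul to -0.69, Nkd1 to -0.079, Notum to -0.25 and Lect2 to -1.07; 1 fit over all groups called 6, all higher, where 3892 of 14434 genes were higher. Without T24 it was 0 by edgeR, with Axin2 at -0.074, Glul -0.72, Tbx3 -0.52, Nkd1 -0.027, Notum -0.21, Rnf43 -0.073, Znrf3 -0.078 and Lect2 -1.20. For DEN control tumours, Rnf43 ran from -0.090 to 0.024 with 1 tumour left out, above 0 without T18. For DEN against spontaneous tumours, DESeq2 called 75 genes and 1 of the 10, and 1 fit over all groups 229 (1.27% of all genes higher) and 6. For diet in DEN tumours, DESeq2 called 155 genes, no filter 1, 1 fit over all groups 210 (5 of the 10), without T24 14, without T23 0, and leaving out 1 control tumour 0 to 1; Rnf43 was -0.076 without T24. For the difference of diet effects, DESeq2 called 657 genes and edgeR without T24 732, with 1 of the 10 and Rnf43 at -0.062; leaving out 1 control tumour gave 174 to 446 genes and 0 to 5 of the 10. The correlation of Axin2 and Znrf3 in livers was -0.117 without N8 and N9. Fewer samples enter where libraries are left out and 1 spread serves all groups in 1 fit; otherwise the cause was not tested.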
